A study of Mus musculus with 20 samples.

Results

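PT-low tumors are 3 of 10 mouse kidney tumors, those in which a panel of 13 proximal tubule genes stood lowest. The members were chosen by measured values. Each tumor's score is the median, over the 13 genes, of the ratio of its CPM (counts scaled to a common library total) to the mean CPM of 10 normal kidneys. Tumors with a score under 0.25 are PT-low, which tumors 7, 8 and 9 were, and tumors 1 to 6 and 10 are called the other tumors. Gene expression was measured by bulk RNA sequencing of polyadenylated RNA in 20 libraries, 10 from tumors and 10 from normal kidney regions of the same 10 mice. All mice were on a C57BL/6 background and carried the alleles Rosa26-LSL-Cas9-EGFP/+ and Pax8 Cre/+, so that cells with a history of Pax8 expression, which include tubule cells of several segments, make Cas9. An adeno-associated virus without Cre, injected into the kidney, brought sgRNAs for Keap1, Pbrm1, Vhl and Tsc1. The mice's ages at sampling are not given in the labels. The normal kidneys carry the same alleles, and serve here to give the level of a gene outside tumors.

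The proximal tubule takes back most of what the glomerulus filters. Its cells carry sodium-coupled carriers for phosphate, glucose and amino acids, the endocytic receptors megalin and cubilin, and exchangers for organic anions and urate, and they burn fatty acids to power this transport. Clear cell kidney cancer is thought to start from these cells, and the loss of their genes is a known feature of less differentiated tumors. The comparison asks what else differed in the tumors in which the panel was lowest.

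Total counts ranged from 18447394 to 24902973 in the tumors and from 14737516 to 26679704 in normal kidneys. Libraries that stand apart and a split by sex-chromosome transcripts bear on all that follows. Tumor 7 had a mean Spearman correlation of 0.866 with the other 9 tumors, computed across genes, which are not independent replicates. The remaining 9 tumors, PT-low tumors 8 and 9 among them, had 0.943 to 0.964. Normal kidney 9 had the lowest share of counts on genes of over 5000 bases, 18.4%, where the other libraries had 34.1% to 40.1%. Normal kidneys 5, 7 and 8 stood apart in Spp1, an injury gene, at 33792, 44403 and 26168 CPM, against 2001 to 4012 CPM in the remaining normal kidneys. They are part of the normal mean behind the scores, of the normal ranges and of the fit that pairs same-numbered libraries, and numbers 7 and 8 are also those of PT-low tumors. All 3 PT-low tumors carried Y-linked transcripts (147, 142 and 155 CPM summed in tumors 7, 8 and 9), and of the other tumors 1 and 10 carried them (121 and 143 CPM). Tumors 2 to 6 had 0 CPM of these and 432 to 634 CPM of Xist, the RNA that silences an X chromosome. What goes with the Y chromosome and what goes with a low panel therefore cannot be fully told apart, and list medians within the 5 tumors with Y-linked transcripts, called the Y tumors, are given beside most of the lists that hold calls. Genes detected were 22422, 21327 and 22404 in tumors 7, 8 and 9, against 20458 to 21907 in the other tumors (means 22051 ± 627 and 21079 ± 471, SD, n = 3 and 7, exact permutation test, two-sided, p = 0.05, adjusted over 5 measures p = 0.25). The share of counts on the 20 most abundant genes was 11.6%, 17.0% and 11.98% in the PT-low tumors and 14.3% to 17.2% in the other tumors (exact permutation p = 0.117, adjusted p = 0.292). The mitochondrial share was 3.30%, 4.93% and 2.09%, against 3.45% to 4.77% (exact permutation p = 0.383, adjusted p = 0.479). The smallest p the 120 arrangements of these tumors allow is 0.0167.

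The scores of the PT-low tumors were 0.108, 0.191 and 0.148 in tumors 7, 8 and 9. Tumor 8 lay just inside the threshold and tumor 6, with 0.279, just outside it, and the rest of the other tumors scored 0.422 to 0.790. Normal kidneys scored 0.201 to 1.40, and normal kidney 7, at 0.201, lay under the threshold too. Genes of the panel at under a ratio of 0.25 numbered 11 of 13 in tumor 7, 7 in tumor 8 and 8 in tumor 9, against 4 to 6 in the other tumors. These values chose the members, so they carry no test. The panel did not fall as a block. Slc34a1, the main phosphate carrier, had ratios of 0.0645, 0.0878 and 0.124 in tumors 7, 8 and 9, below the other tumors' 0.303 to 0.790. Lrp2, which encodes megalin, had 0.246, 0.724 and 1.47, so that tumor 9 exceeded the mean normal kidney. Cubn, for cubilin, had 0.0920, 0.478 and 0.328, against 0.620 to 1.10. Slc22a6, an organic anion exchanger, had 0.200, 1.08 and 0.275, against 0.672 to 2.02. Aqp1, a water channel, overlapped, with 0.190, 0.104 and 0.155 against 0.0913 to 0.318. Of the 13 genes, 12 passed the filter on low counts and Slc22a7 did not, being at 0 in the 10 tumors. Over 88 other proximal tubule genes the same score was 0.234, 0.501 and 0.395 in tumors 7, 8 and 9 and 0.594 to 0.866 in the other tumors. The 88 genes are of the same cell type as the panel, so they are no independent support. The order of the classes was kept over them, while under 0.25 lay tumor 7 alone. The name is therefore used for a low panel, not for the loss of proximal tubule identity. In bulk tissue, fewer cells of a type and less RNA per cell cannot be told apart.

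**Figure D1:**
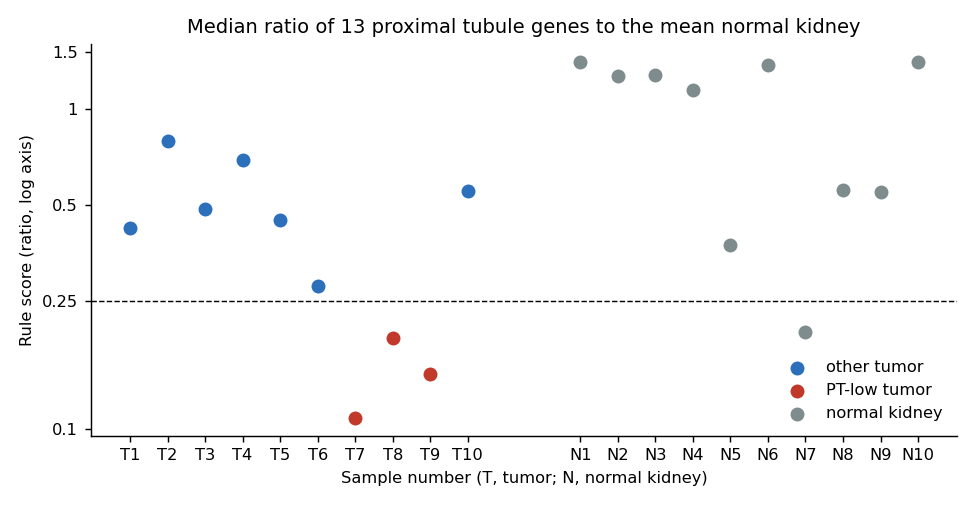
Rule score of each library, the median ratio of 13 proximal tubule genes to the mean normal kidney, on a log axis; each point is a library and the dashed line is the threshold of 0.25. Tumors 7, 8 and 9 lie under it at 0.108, 0.191 and 0.148, tumor 6 lies just above it at 0.279, and normal kidney 7 lies under it at 0.201.

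Between PT-low and other tumors, edgeR tested 15611 genes outside the panel. At an adjusted p under 0.05, which is what called, rose and fell mean here, 1062 genes were higher (6.8% of those tested) and 460 lower (2.95%) in PT-low tumors. Calls within each list below are to be read beside these shares, and no list was tested against all genes. Every PT-low tumor was above every other tumor in 580 genes (3.72%) and below in 798 (5.11%). These counts rest on the choice of libraries. Kl alone had an adjusted p of 0.00645, and no other gene had less than 0.0264. Without tumor 7 edgeR called 0 genes, with 1256 higher (7.91%) and 1152 lower (7.25%) at an unadjusted p under 0.05, where all 10 tumors gave 2568 and 1876. Without tumor 2, 3 or 4 the call was Kl alone, lower. Without tumor 6, 2 genes were higher (Cd36, Cdh17) and 3 lower (Kl, Rcan1, Mettl7a2). Leaving out tumor 1 gave 709 higher and 282 lower, tumor 5 gave 1295 and 701, tumor 8 gave 2171 and 1409, tumor 9 gave 824 and 304, and tumor 10 gave 332 and 104. On all 10 tumors DESeq2 called 1669 higher and 1086 lower, and limma-voom with quality weights 749 and 385. With a term for Y-linked transcripts, chosen after seeing the data, edgeR called 0, with 1147 higher (7.35%) and 901 lower (5.77%) unadjusted. Within the 5 tumors that carry them it called 0, with 566 and 437 unadjusted.

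With same-numbered tumor and kidney as a pair, which the labels do not state as the same mouse and which is called by pairs below, edgeR called 0, with 1889 higher and 1409 lower unadjusted. In this fit 6 named genes called among the tumors changed direction. The list median stayed near that among the tumors for proximal tubule transporters (-0.83 against -0.93), proximal tubule metabolism (-0.66 against -0.67) and endothelial genes (1.01 against 0.84). It was nearer to 0 for macrophage genes (0.69 against 2.01), neutrophil genes (1.39 against 4.29), fibroblast and pericyte genes (1.44 against 2.67), endocytosis and brush border genes (-0.28 against -0.72) and proximal tubule transcription factors (-0.07 against -0.53). It was further from 0 for glycolysis (-0.55 against -0.27) and the nuclear-encoded respiratory chain (-0.73 against -0.39). This fit pairs tumor 9 with normal kidney 9, the library with 18.4% of counts on long genes. Leaving that kidney out moved the respiratory chain median against normal kidney from -0.82 to -0.57 in PT-low tumors. In the other tumors it went from -0.39 to -0.16.

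The rises and the falls differed in how far tumor 7 carried them. Among the 1062 higher genes tumor 7 was the highest PT-low tumor in 951, and the median log2 fold change went from 2.00 to 0.99 without it. Of the 460 lower genes it was the lowest PT-low tumor in 368, while the median went from -0.81 to -0.65. Groups did not overlap in 414 of the higher and 394 of the lower genes. Tumors 8 and 9 against 1 and 10, all with Y-linked transcripts, gave medians of 0.80 for the higher genes and -0.58 for the lower genes. These tumors are part of the fit that chose the genes, so the direction is partly built in. The median over all genes tested was 0.02, and 0.12 when counts were scaled by library totals in place of TMM factors, so directions are relative to such shifts.

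**Figure D2:**
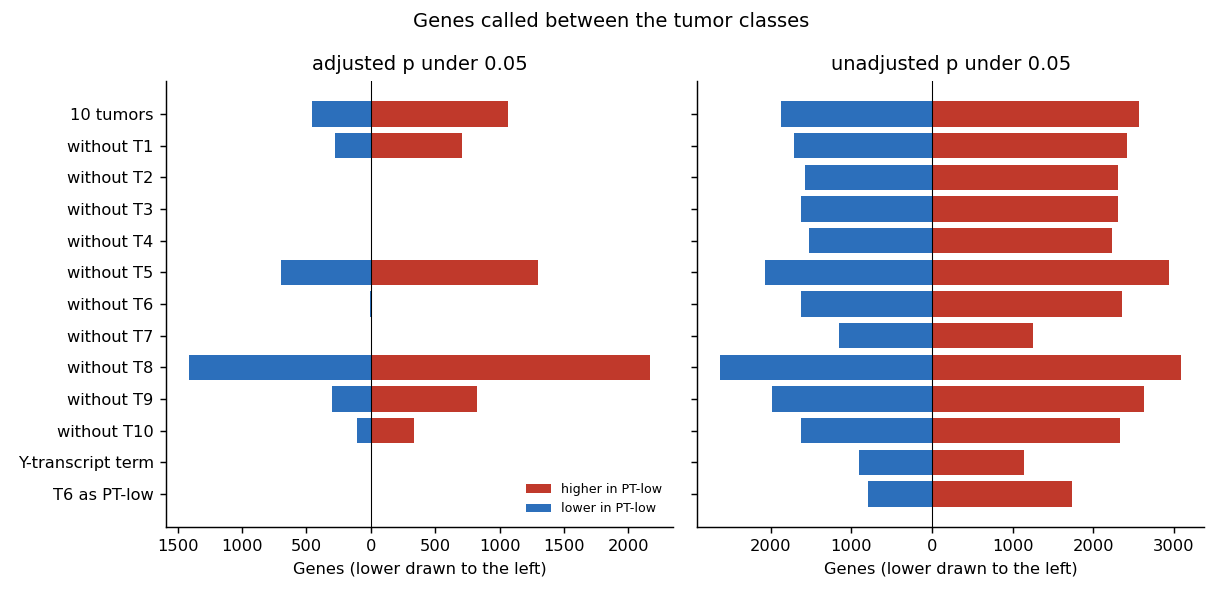
Genes called between PT-low and other tumors by edgeR at an adjusted (left) and unadjusted (right) p under 0.05, with higher genes drawn to the right and lower genes to the left; each bar is a fit, with all 10 tumors, without 1 tumor, with a term for Y-linked transcripts or with tumor 6 counted as PT-low. Adjusted counts run from 0 without tumor 7 to 2171 higher and 1409 lower without tumor 8, while the unadjusted counts of these fits lie between 1147 and 3096 higher.

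Kl, which encodes klotho, the co-receptor through which FGF23 lowers phosphate uptake in the tubule, was the gene with the lowest p. It stood at 4.62, 7.46 and 4.80 CPM in tumors 7, 8 and 9, against 25.6, 35.0 and 49.98 CPM (lowest, median, highest) in the other tumors and 78.3, 543 and 684 CPM in normal kidneys. The 3 PT-low tumors lay below all other tumors, and all tumors below all normal kidneys. Tumor 6, which just missed the threshold, had 35.0 CPM. The log2 fold change against the other tumors was -2.77 (SE 0.26, adjusted p = 0.00645, n = 3 and 7). It was -2.67 without tumor 7, -2.54 for tumors 8 and 9 against 1 and 10, and -0.87 (adjusted p = 0.387) with same-numbered tumor and kidney as a pair. Against the normal kidneys it was -6.21 for PT-low and -3.42 for other tumors, 2 contrasts that share the normal kidneys.

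Slc34a3, a sodium-phosphate carrier of the brush border, was at 0, 0.111 and 0.410 CPM, against 1.11, 1.44 and 3.92 CPM in the other tumors and a median of 33.8 CPM in normal kidneys. PT-low tumors again lay below all other tumors, at a log2 fold change of -3.42 (SE 0.81, adjusted p = 0.0320), and -2.06 by pairs. Cyp2d26, a cytochrome P450, had 6.05, 23.1 and 14.4 CPM, against 32.2, 97.0 and 169.5 CPM, where tumor 6 was the lowest of the other tumors at 32.2. Its log2 fold change was -2.79 (SE 0.54, adjusted p = 0.0264), and 0.71 with same-numbered tumor and kidney as a pair. Hsd3b2, a steroid dehydrogenase, Rdh16f2, of a retinol dehydrogenase family, and Galnt14, which starts O-linked sugar chains, fell by 4.50, 3.60 and 3.88 on the log2 scale. All stood at no more than 1.28 CPM in each PT-low tumor. Slc22a29, an organic anion carrier, had 0.475, 1.61 and 0.698 CPM, against 3.18, 5.18 and 7.58 CPM, and fell by 2.52, where the pairs gave a rise of 1.69. Pde6a, a phosphodiesterase subunit, and Mro fell by 3.07 and 3.02 and were under 3 CPM in each tumor. Hsd3b2, Cyp2d26, Rdh16f2 and Slc22a29 belong to families with similar copies, between which reads can be split. Mettl7a2, a methyltransferase-like gene chosen after its values were seen, had 1.38, 0.779 and 0.698 CPM in tumors 7, 8 and 9, 0.754 CPM in tumor 6 and 7.16 to 18.2 CPM in the remaining tumors. In Galnt14 and Rcan1 tumor 6 was instead the highest of all tumors, at 15.7 and 653 CPM.

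Promoters of 3 of these falls are shown to give their sequence. The falls were selected for classes that do not overlap, so that they moved together is set by the choice. Sequences span 250 bases before to 50 bases after the start (RefSeq, build GRCm38.p6), 5′ to 3′ on the gene's strand. They were searched on both strands for GTTAAT, a part of the palindromic motif that HNF1 factors of the tubule bind. Capitals mark a match. It was in 7.1% of all promoters (2332 of 32851) and in 2 of the 8 largest falls searched, Cyp2d26 and Slc22a29, and it was not in that of Kl. A match is a description of letters, not a site. Kl lies at chr5:150952357-150952656 on the plus strand, Cyp2d26 at chr15:82794196-82794495 on the minus strand and Slc22a29 at chr19:8218851-8219150 on the minus strand.
Kl: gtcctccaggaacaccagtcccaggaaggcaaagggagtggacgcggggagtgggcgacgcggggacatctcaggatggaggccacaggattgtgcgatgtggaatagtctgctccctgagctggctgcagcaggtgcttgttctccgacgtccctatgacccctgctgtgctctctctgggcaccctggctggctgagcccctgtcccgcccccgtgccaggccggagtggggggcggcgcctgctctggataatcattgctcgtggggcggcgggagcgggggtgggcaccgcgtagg
Cyp2d26: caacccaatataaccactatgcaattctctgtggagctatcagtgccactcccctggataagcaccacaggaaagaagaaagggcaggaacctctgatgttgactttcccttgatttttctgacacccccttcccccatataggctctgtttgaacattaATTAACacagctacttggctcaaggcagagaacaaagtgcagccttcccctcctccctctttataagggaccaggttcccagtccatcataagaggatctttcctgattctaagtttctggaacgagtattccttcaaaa
Slc22a29: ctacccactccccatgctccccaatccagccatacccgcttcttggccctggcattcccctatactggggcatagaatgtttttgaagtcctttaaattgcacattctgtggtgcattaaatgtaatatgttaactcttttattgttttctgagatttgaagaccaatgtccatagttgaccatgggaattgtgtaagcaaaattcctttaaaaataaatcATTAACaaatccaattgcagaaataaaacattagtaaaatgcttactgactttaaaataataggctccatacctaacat

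Proximal tubule transporters outside the panel were lower as a list. The panel that set the classes is made mostly of such carriers, measured in the same libraries. A fall of other carriers was thus largely set by the choice, and the calls are no independent support. This holds for the other proximal tubule lists below too. Of 30 genes, 28 were tested, 13 fell and 0 rose by edgeR (18 lower and 0 higher unadjusted, 16 and 0 by DESeq2, 12 and 0 by limma-voom). The share lower over all genes tested was 2.95%. All 28 fold changes were negative, with a median of -0.93 where all genes tested had 0.02. The median was -0.83 without tumor 7, -0.83 within the Y tumors and -0.53 for tumors 8 and 9 against 1 and 10. Slc22a12, the urate exchanger URAT1 and a member chosen after its values were seen, stood at 47.2, 90.5 and 96.3 CPM in tumors 7, 8 and 9. The other tumors had 214, 455 and 468 CPM and the normal kidneys 223, 562 and 1215 CPM. The 3 PT-low tumors were thus below all other tumors and all normal kidneys, while the other tumors overlapped the normal kidneys. The log2 fold change was -2.27 (SE 0.31, adjusted p = 0.0264), -2.03 without tumor 7 and -2.25 by pairs. Slc6a20b, of the SLC6 carrier family, had 1.43, 4.06 and 4.27 CPM, against 13.3, 19.7 and 32.5 CPM, with no overlap. It fell by 2.61 (SE 0.40, adjusted p = 0.0264), and by 1.34 by pairs. Slc4a4, the basolateral bicarbonate carrier and the most abundant member, overlapped, at 838, 2946 and 1745 CPM against 2361, 3333 and 4241 CPM, and did not pass the test (log2 fold change -0.77, adjusted p = 0.158). The summed level of the list was 3219.7 CPM in tumor 7, 8433 CPM in tumor 8 and 6793 CPM in tumor 9, against 9654 to 12391 CPM in the other tumors.

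**Figure D3:**
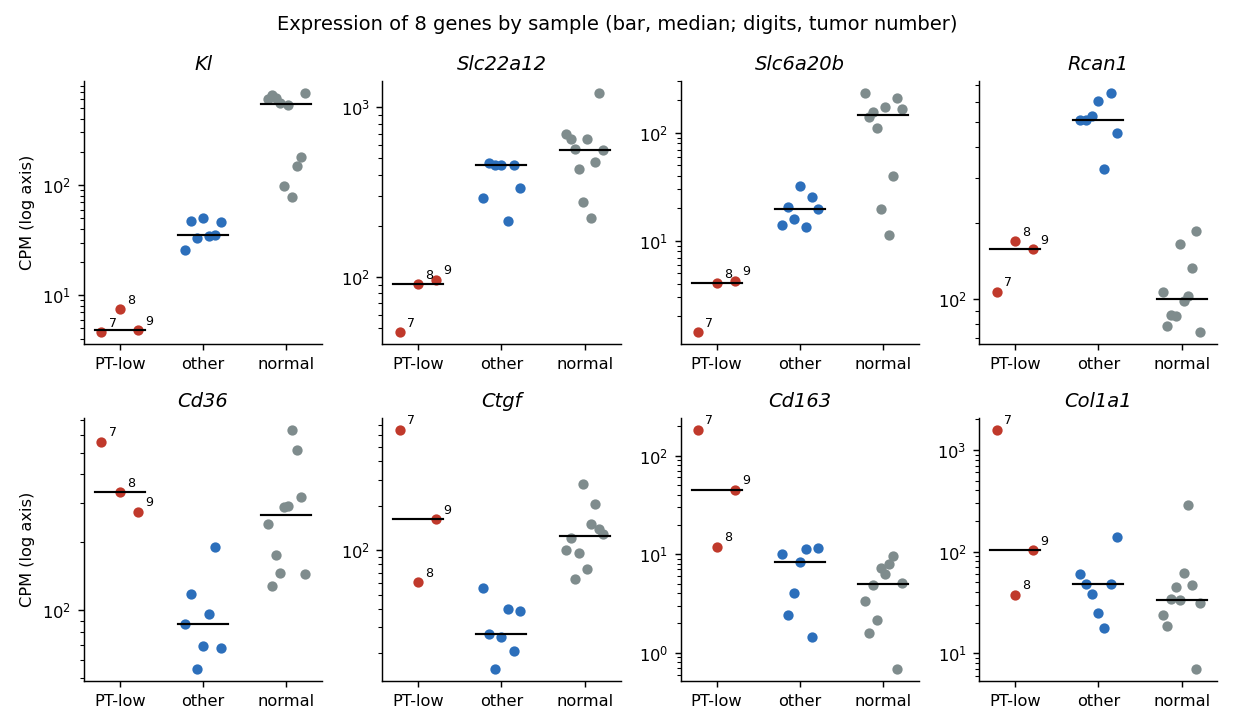
CPM of 8 genes in PT-low tumors, other tumors and normal kidneys, on log axes; each point is a library, bars are medians and digits are tumor numbers. In the panels of Kl, Slc22a12, Slc6a20b and Rcan1 tumors 7, 8 and 9 lie below all other tumors, in those of Cd36, Ctgf and Cd163 they lie above them, and in that of Col1a1 tumor 7 stands apart at 1583 CPM.

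Endocytosis and brush border genes were lower by less. Of 22 genes, 21 were tested and 3 fell (12 lower unadjusted, 9 by DESeq2, 4 by limma-voom), where 2.95% of all genes tested were lower. All 21 fold changes were negative, while tumor 8 lay within the other tumors in 14 of the 22. The median was -0.72, -0.56 without tumor 7, -0.59 within the Y tumors and -0.40 for tumors 8 and 9 against 1 and 10. Pdzk1, the scaffold that holds carriers at the brush border, had 73.4, 271 and 230.4 CPM, against 342, 459 and 549 CPM, with no overlap (log2 fold change -1.22, SE 0.33, adjusted p = 0.0437). Clcn5, the chloride-proton exchanger of endosomes, had 55.8, 73.2 and 80.5 CPM, against 87.5, 123 and 160.3 CPM, again with no overlap, and fell by 0.83. The abundant peptidases Ggt1 and Anpep overlapped the other tumors and missed the test (log2 fold change -0.68 and -1.17, adjusted p = 0.128 and 0.0626). Against normal kidney the list's median was -0.32 in PT-low and 0.62 in other tumors.

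Proximal tubule metabolism split in the PT-low class, with tumor 8 apart from tumors 7 and 9. Of 36 genes, 35 were tested and 5 fell (16 lower and 2 higher unadjusted), where 2.95% of all genes tested were lower. Fold changes were negative in 28 and positive in 7, with a median of -0.67. The median was -0.38 without tumor 7, -0.67 within the Y tumors and -0.23 for tumors 8 and 9 against 1 and 10. Leaving out 1 tumor at a time gave medians from -1.47 to -0.38. The summed level was 3313 CPM in tumor 7 and 9209 CPM in tumor 9, below the other tumors' 13727 to 22079 CPM, while tumor 8 with 17837 CPM lay among them. Akr1c21, a hydroxysteroid dehydrogenase, and Hao2, a peroxisomal hydroxyacid oxidase, fell by 2.36 and 2.14, and by 1.26 and 0.11 by pairs. Akr1c21 had 0.259, 0.501 and 0.287 CPM, against 0.664, 1.51 and 3.22 CPM in the other tumors and a median of 309 CPM in normal kidneys, so the gap between the classes is small beside that of all tumors to normal kidney. Gatm, the first enzyme of creatine synthesis, had 257, 1854 and 1590.2 CPM, below the other tumors' 1995 to 4882 CPM, yet did not pass the test (log2 fold change -1.28, adjusted p = 0.142).

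Of the proximal tubule transcription factors, 11 were tested and edgeR called 0 (5 lower and 0 higher unadjusted, 5 lower by DESeq2, 2 lower by limma-voom), with a median of -0.53, -0.24 without tumor 7 and -0.42 within the Y tumors. Hnf4a, the nuclear receptor that drives proximal tubule maturation, had 86.8, 315 and 284 CPM, against 386, 473 and 610.1 CPM. The classes did not overlap, but the adjusted p was 0.0609 (log2 fold change -1.08, SE 0.33), and the change was -0.70 without tumor 7. Among kidney lineage factors 14 of 20 were tested and 3 fell (4 by DESeq2, 1 by limma-voom), where 2.95% of all genes tested were lower. Among the 3 were Sim1 and Emx1, both factors of the developing nephron. Sim1 was at 0.216, 0 and 0 CPM in tumors 7, 8 and 9, and at 0.168, 4.31 and 8.13 CPM in the other tumors, so the classes overlapped. Its level went with the Y-linked transcripts, since tumors 1 and 10 had 0.168 and 0.522 CPM and tumors 2 to 6 had 2.00 to 8.13 CPM. Emx1 was at 0.0432, 0.0557 and 0.0821 CPM, against 0.0553, 1.51 and 2.86 CPM, overlapping too, with normal kidneys at 5.49 to 61.8 CPM. Within the tumors with Y-linked transcripts neither could be tested, being too low. Pax8, whose Cre opens Cas9 in these mice, had 114, 135 and 140.4 CPM, against 139.8 to 203 CPM, overlapping through tumor 9, and did not pass the test (log2 fold change -0.38, adjusted p = 0.0821).

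Summed levels of other nephron segments were below the median of normal kidney in PT-low and other tumors alike. Loop of Henle genes summed to 33.0, 76.3 and 105 CPM in tumors 7, 8 and 9, against 94.3 to 205 CPM in the other tumors and 3921 to 10417 CPM in normal kidneys. Distal convoluted tubule genes summed to 121, 186 and 170.0 CPM, against 181 to 225 CPM. Principal cell genes summed to 32.7, 8.35 and 6.44 CPM, above the other tumors' 0.301 to 2.96 CPM and far below the normal kidneys' 235 to 1299 CPM. Aqp3, a water channel of the basal membrane, had 23.8, 0 and 5.42 CPM in tumors 7, 8 and 9 and was not tested. In tumor 8 the sum came mostly from Hsd11b2, a dehydrogenase of glucocorticoids, which had 6.09, 6.79 and 0.492 CPM, against 0.0861 to 1.79 CPM, overlapping through tumor 9, and was not called (log2 fold change 2.72, adjusted p = 0.0715). Intercalated cell genes summed to 12.1, 5.90 and 5.74 CPM, against 1.99 to 5.42 CPM. PT-low tumors were thus highest for both collecting duct lists, at levels where few genes could be tested. Podocyte genes summed to 283, 221 and 233 CPM, against 137 to 221 CPM. Tested were 6 loop, 5 distal, 1 principal cell, 2 intercalated cell and 6 podocyte genes, of which edgeR called 0. Unadjusted, 2 loop genes and 1 distal gene were lower and 1 gene of each of the other 3 lists higher. The podocyte median of 0.81 was -0.12 without tumor 7, 0.39 within the Y tumors and -0.46 for tumors 8 and 9 against 1 and 10. DESeq2 called 1 loop gene lower and 1 principal cell and 1 podocyte gene higher, and limma-voom 1 intercalated cell gene higher.

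Macrophage genes were higher in PT-low tumors as a sum, by the least in tumor 8. All 15 were tested and 12 rose, where 6.8% of all genes tested were higher. In 8 every PT-low tumor was above every other tumor, as in 3.72% of all genes tested. The median log2 fold change was 2.01. Without tumor 7 the median was 1.16, with 11 of 15 higher at an unadjusted p under 0.05, and it was 1.64 within the Y tumors and 0.86 for tumors 8 and 9 against 1 and 10. With the term for Y-linked transcripts 10 of 15 were higher unadjusted. The summed level was 2997, 813 and 1324 CPM in tumors 7, 8 and 9, against 438, 637 and 712 CPM in the other tumors and a median of 277 CPM in normal kidneys, with no overlap between the tumor classes. Lyz2, lysozyme and the most abundant member, had 729, 163 and 275 CPM, against 81.0, 117 and 159 CPM. The classes did not overlap, at a log2 fold change of 1.75 (SE 0.39, adjusted p = 0.0290), 0.88 without tumor 7 and 0.56 by pairs. Cd163, the haptoglobin-hemoglobin scavenger receptor of resident macrophages, had 183, 11.9 and 44.97 CPM, against 1.45, 8.35 and 11.5 CPM, with no overlap. Its log2 fold change was 3.56 (SE 0.73, adjusted p = 0.0264), 2.02 without tumor 7 and 3.09 by pairs. In tumor 8, 6 of the 15 members lay within the other tumors. Of these, chosen after their values were seen, the macrophage marker Adgre1 had 33.0, 11.6 and 31.3 CPM, against 4.70 to 15.9 CPM, and was called at 1.30 (1.03 without tumor 7). Csf1r, the receptor for a macrophage growth factor, had 185, 102 and 155 CPM, against 81.3 to 116 CPM, and was called at 0.69 (0.46 without tumor 7). Cd68, of macrophage lysosomes, had 198, 99.3 and 162 CPM, against 74.7 to 217 CPM, and was not called (log2 fold change 0.33, adjusted p = 0.528). Cd14, the lipopolysaccharide co-receptor, overlapped and missed the test (log2 fold change 0.86, adjusted p = 0.113). None of the 15 genes was at 0 in all tumors. What part macrophage RNA has in the lower share of tubule genes was not tested.

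Neutrophil and myeloid suppressor genes were higher mainly in tumor 7. Of 8 tested, 6 rose (3 by DESeq2, 6 by limma-voom), where 6.8% of all genes tested were higher. The median was 4.29, 1.59 without tumor 7 and 5.25 within the Y tumors. Summed levels were 552, 34.1 and 42.3 CPM in tumors 7, 8 and 9, against 5.83, 9.17 and 41.1 CPM, where the highest of the other tumors was tumor 5. S100a9, a calprotectin subunit, had 153, 6.90 and 9.64 CPM, against 0.229, 0.503 and 9.63 CPM, so the classes overlapped through tumor 5. Retnlg, a neutrophil gene of the resistin family, had 90.6, 3.897 and 3.12 CPM, against 0.114, 0.261 and 3.76 CPM, overlapping in the same way. Their log2 fold changes were 4.99 and 5.50, and 2.16 and 2.22 without tumor 7.

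The 10 largest rises were of genes at low levels outside tumor 7. Marco, a macrophage scavenger receptor, had 83.4, 1.17 and 1.64 CPM in tumors 7, 8 and 9, against 0, 0.0870 and 0.686 CPM (log2 fold change 6.88, and 2.48 without tumor 7). Cxcl13, which draws B cells, had 171, 3.06 and 12.2 CPM, against 0, 0.775 and 1.99 CPM (6.38, and 3.31 without tumor 7). Krt5, a basal cell keratin, had 57.3, 1.39 and 6.65 CPM, against 0, 0.229 and 0.689 CPM (6.13, and 3.65 without tumor 7). In each, the 3 PT-low tumors were above all other tumors, tumor 7 by far the most. The remaining 7 of the 10 largest rises were Serpina3i, Hcar2, Trem1, Mmp3, Tnnt2, Clec4d and Slfn4, with log2 fold changes of 5.59 to 4.49. Without tumor 7 they were 4.21 to 1.60. Trem1, Clec4d, Hcar2 and Slfn4 are genes of myeloid cells, Mmp3 a matrix protease, Tnnt2 a troponin and Serpina3i a serine protease inhibitor with close copies.

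Of 16 T and natural killer cell genes, 6 were tested and edgeR called 0 (0 unadjusted, 0 by DESeq2 and by limma-voom), with summed levels of 4.36, 3.23 and 11.6 CPM in PT-low and 2.55 to 7.43 CPM in other tumors. Of 7 B and plasma cell genes 2 were tested and 0 called (1 higher unadjusted, 1 by DESeq2, 0 by limma-voom), and the sums were 12.9, 1.95 and 14.1 CPM, against 1.33 to 6.17 CPM. MHC class II genes, which present antigen to T cells, were not called in any of 7 (0 unadjusted, 0 by DESeq2 and limma-voom), at a median of -0.35. Interferon response genes were not called in any of 13 by edgeR (0 unadjusted, 0 by DESeq2, 1 lower by limma-voom), but they summed lower in 2 PT-low tumors, 379 and 588 CPM in tumors 7 and 9, against 854 to 1466 CPM in the other tumors. Tumor 8, at 1677 CPM, lay above all of these. Ifit2, an antiviral protein and the most abundant of them, followed, with 106, 659 and 105 CPM, against 383, 628 and 685 CPM (log2 fold change -1.01, adjusted p = 0.228).

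Endothelial genes were higher in tumors 7 and 9. All 16 were tested and 5 rose (10 unadjusted, 9 by DESeq2, 7 by limma-voom), where 6.8% of all genes tested were higher. All 16 fold changes were positive, with a median of 0.84. It was 0.69 without tumor 7, 0.62 within the Y tumors and 0.53 for tumors 8 and 9 against 1 and 10. Summed levels were 1436, 658 and 1757 CPM in tumors 7, 8 and 9, against 587, 743 and 1064 CPM, so tumors 7 and 9 exceeded the other tumors and tumor 8 did not. The most abundant member is Plvap, the diaphragm protein of fenestrated vessels. It had 219.9, 174.0 and 428.8 CPM, against 176.8 to 311.8 CPM, so tumor 7 lay within the other tumors and tumor 8 below them. Esam, an adhesion molecule of endothelial junctions, had 46.8, 42.2 and 134 CPM, against 22.5, 27.7 and 40.4 CPM, with no overlap (log2 fold change 1.40, SE 0.31, adjusted p = 0.0288, and 1.63 without tumor 7). Tumor 9 stood far above the rest, and leaving out 1 tumor at a time gave log2 fold changes of 0.66 to 1.68. Vwf, the clotting carrier von Willebrand factor, had 57.0, 16.4 and 54.8 CPM, against 1.94, 4.93 and 26.1 CPM, overlapping through tumor 6, and was called at 2.40. Pecam1 had 223, 71.7 and 188 CPM, against 58.7 to 100.4 CPM, overlapping through tumor 8, and was called at 1.06.

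Fibroblast and pericyte genes set tumor 7 apart. Of 15 tested, 13 rose (13 by DESeq2, 6 by limma-voom), where 6.8% of all genes tested were higher. But 1 had every PT-low tumor above every other tumor, where 3.72% of all genes tested did. The median of 2.67 went to 0.79 without tumor 7, and was 2.30 within the Y tumors. Summed levels were 9568, 366 and 1209 CPM in tumors 7, 8 and 9, against 273, 427 and 730.1 CPM in the other tumors. Tumor 8 lay within the other tumors. Col3a1, type III collagen and the most abundant member, had 4292 CPM in tumor 7, 48.4 in tumor 8 and 151 in tumor 9, against 32.9, 67.4 and 184 CPM. Its log2 fold change of 4.32 went to 0.36 without tumor 7 and to -0.43 for tumors 8 and 9 against 1 and 10. Col1a1, type I collagen, went from 3.48 to 0.40 and -0.48 in the same comparisons. Of 19 collagen and matrix genes 7 rose (10 by DESeq2, 1 by limma-voom), where 6.8% of all genes tested were higher. Their median was 1.51, 0.49 without tumor 7 and 1.28 within the Y tumors. Tnc, tenascin of remodeled matrix, had 302, 5.46 and 9.11 CPM, against 3.15, 4.81 and 11.7 CPM, and went from 4.34 to 0.43. Lox, which cross-links collagen, had 576, 19.2 and 37.5 CPM, against 7.72, 11.1 and 21.4 CPM, and went from 4.03 to 1.08. What part stromal RNA has in the other differences of tumor 7 was not tested.

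Cadherins and genes of epithelial-mesenchymal transition gave 5 rises of 20 tested (8 by DESeq2, 2 by limma-voom), where 6.8% of all genes tested were higher. The median was 0.92, 0.38 without tumor 7, 0.83 within the Y tumors and 0.15 for tumors 8 and 9 against 1 and 10. Epcam, an adhesion molecule of distal tubule and collecting duct, had 14.5, 0.779 and 1.44 CPM, against 0, 0.286 and 1.12 CPM, and normal kidneys 104 to 219.9 CPM. Tumor 8 overlapped the other tumors, and the log2 fold change of 4.16 was 1.79 without tumor 7. Mmp2, a gelatinase of stromal cells, had 263, 9.63 and 20.6 CPM, against 5.01 to 16.4 CPM, and was called at 3.57 (0.82 without tumor 7). Cdh16, the kidney-specific cadherin, had 283, 697 and 864 CPM, against 670.4 to 1125 CPM, and was not called (log2 fold change -0.47, adjusted p = 0.332). Cdh17, an intestinal cadherin named after its values were seen, had 4.88, 1.61 and 9.27 CPM, above the other tumors' 0.114 to 1.08 CPM, and rose by 3.92 on the log2 scale, and by 3.95 without tumor 7.

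Tubule injury genes rose in 8 and fell in 2 of 28 tested (10 and 3 by DESeq2, 5 and 1 by limma-voom). Of all genes tested 6.8% were higher and 2.95% lower. The list's median was 0.78, 0.28 without tumor 7, 0.65 within the Y tumors and 0.19 for tumors 8 and 9 against 1 and 10. With same-numbered tumor and kidney taken as a pair, which the labels do not state, the median turned to -0.37. Timp1, an inhibitor of matrix proteases, had 419 CPM in tumor 7, 5.01 in tumor 8 and 7.75 in tumor 9, against 1.25, 5.26 and 10.3 CPM, so that its call (log2 fold change 4.84) went to 0.29 without tumor 7. Krt7, a keratin of the collecting duct, had 49.2, 0.445 and 10.5 CPM, against 0.172, 0.791 and 1.85 CPM. Normal kidneys had 124 to 223 CPM, so every tumor lay below every normal kidney. Tumors 7 and 9 were above the other tumors and tumor 8 was not, at a log2 fold change of 4.69, and 2.77 without tumor 7. Spp1, osteopontin and the most abundant injury gene, had 12502, 22467 and 8364 CPM, against 10360.3 to 36289 CPM, and was not called (log2 fold change -0.22, adjusted p = 0.772).

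Cd36 and Ctgf were above all other tumors in each of the 3 PT-low tumors. Cd36 is a fatty acid receptor of endothelial cells, macrophages and tubule, and Ctgf a matrix protein induced by YAP and TGF-beta, and both were chosen after their values were seen. Cd36 had 559, 334 and 274 CPM in tumors 7, 8 and 9, against 54.9, 87.0 and 189.7 CPM in the other tumors, the highest being tumor 6, and normal kidneys had 128 to 631 CPM. PT-low tumors were above all other tumors and within the normal kidneys, at a log2 fold change of 2.03 (SE 0.35, adjusted p = 0.0264), 1.64 without tumor 7 and 0.76 (adjusted p = 0.251) by pairs. Ctgf had 654, 60.5 and 162 CPM, against 15.7, 27.2 and 55.6 CPM, with no overlap (log2 fold change 3.25, 1.81 without tumor 7 and 2.10 by pairs).

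Rcan1, an inhibitor of calcineurin also chosen after its values were seen, moved the other way. It had 107, 169.6 and 158 CPM in tumors 7, 8 and 9, against 327, 512 and 653 CPM in the other tumors and 74.0, 100.4 and 185 CPM in normal kidneys. The PT-low tumors lay below all other tumors and inside the spread of normal tissue. The log2 fold change was -1.80 (SE 0.23, adjusted p = 0.0264), -1.64 without tumor 7, -1.55 for tumors 8 and 9 against 1 and 10 and -2.35 by pairs.

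**Figure D4:**
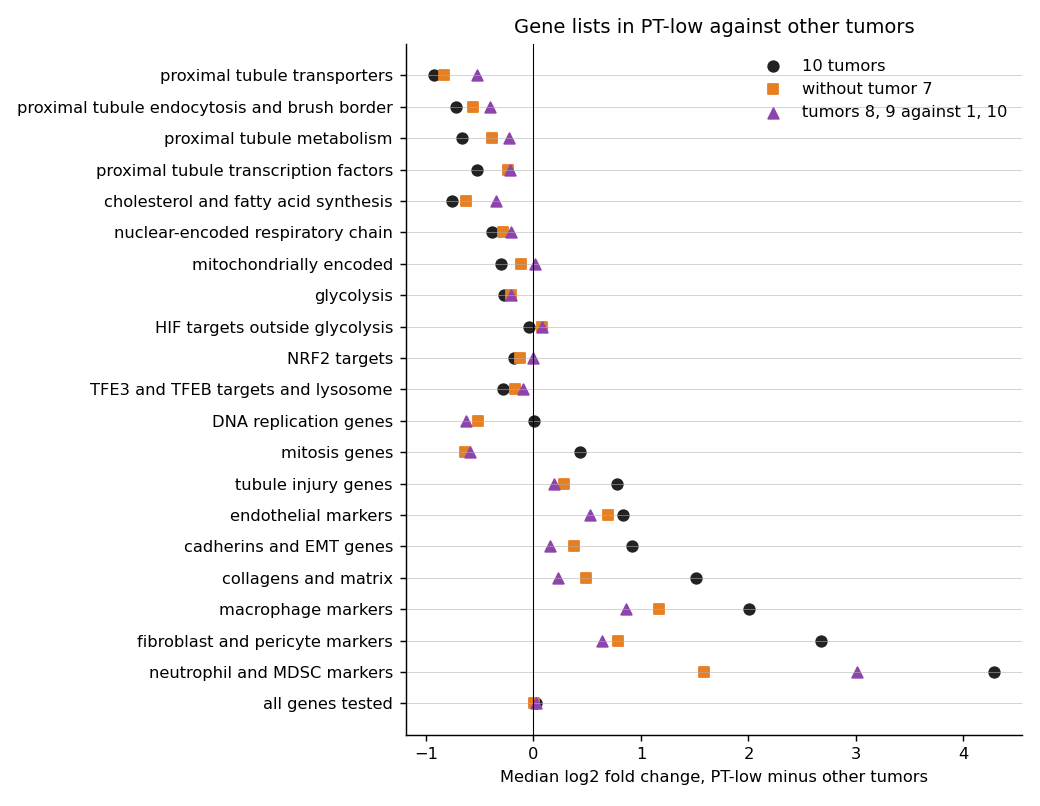
Median log2 fold change of each gene list, PT-low minus other tumors, over all 10 tumors (circles), without tumor 7 (squares) and for tumors 8 and 9 against 1 and 10 (triangles); the vertical line is 0. Fibroblast and pericyte markers go from 2.67 to 0.79 without tumor 7, macrophage markers from 2.01 to 1.16, proximal tubule transporters from -0.93 to -0.83, and mitosis genes change sign, from 0.43 to -0.63.

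Of 21 hypoxia targets outside glycolysis 1 rose and 0 fell (1 lower unadjusted, 0 by DESeq2 and limma-voom), where of all genes tested 6.8% were higher and 2.95% lower, and the list was not tested against all genes. The list had a median of -0.04, and -0.03 within the Y tumors, and against normal kidney the median was 1.84 in PT-low and 1.78 in other tumors. Egln3, an oxygen-sensing hydroxylase strongly induced by HIF, had 395, 470.2 and 762 CPM, against 368, 392.5 and 589 CPM, with normal kidneys at 16.9 to 40.4 CPM. It was not called (log2 fold change 0.32, adjusted p = 0.356). Ndrg1, another hypoxia gene, had 2638, 5150.2 and 5622 CPM, below the other tumors' 5631 to 6727 CPM, and was not called (log2 fold change -0.45, adjusted p = 0.207). Glycolysis genes were lower by little, with 16 of 18 fold changes negative, 1 fall (7 lower unadjusted, 5 by DESeq2, 1 by limma-voom) and a median of -0.27, and -0.29 within the Y tumors. Ldha, lactate dehydrogenase A, had 1911, 2295 and 2022 CPM, against 2706, 2971 and 3264 CPM in the other tumors and 452 to 1149 CPM in normal kidneys. The PT-low tumors lay between the other tumors and the normal kidneys without overlap (log2 fold change -0.49, SE 0.14, adjusted p = 0.0453, and -0.46 without tumor 7). Eno1, enolase, also lay below all other tumors, at 2637, 3687 and 3586 CPM against 3780.2 to 4425 CPM, and was not called (log2 fold change -0.33, adjusted p = 0.175).

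The nuclear-encoded respiratory chain was lower in tumors 7 and 9. Its genes summed to 8315, 13268 and 9492 CPM in tumors 7, 8 and 9, against 12942 to 15590 CPM in the other tumors, so that tumor 8 lay within them, as it did in 41 of the 54 genes. All 54 genes had negative fold changes, with and without tumor 7, at medians of -0.39 and -0.28. Of these, 7 fell (35 lower unadjusted, 19 by DESeq2, 10 by limma-voom), where 2.95% of all genes tested were lower. Within the Y tumors the median was -0.33. Ndufs1, a subunit of complex I, had 95.7, 135 and 120.3 CPM, against 163, 192 and 205 CPM (log2 fold change -0.67, SE 0.12, adjusted p = 0.0264, and -0.22 by pairs). Sdha, the catalytic subunit of complex II, had 258, 418 and 379 CPM, against 486, 549.6 and 602 CPM, and fell by 0.61 (0.19 by pairs). These were named for their called changes, and neither overlapped the other tumors. Atp5b, of ATP synthase, did not overlap them either but missed the test (log2 fold change -0.49, adjusted p = 0.0673). Mitochondrially encoded genes were called in 0 of 13 by edgeR (1 lower unadjusted, 0 by DESeq2 and limma-voom) and varied within the class, with sums of 28175, 52558 and 19267 CPM in tumors 7, 8 and 9, against 35549 to 51406 CPM. Tumors 7 and 9 lay below the other tumors and tumor 8 above them.

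Cholesterol and fatty acid synthesis was lower among the tumors, while its median was positive by pairs, which the labels do not state as the same mouse. Of 18 genes 6 fell (13 lower unadjusted, 12 by DESeq2, 4 by limma-voom), where 2.95% of all genes tested were lower. The median was -0.76, -0.63 without tumor 7, -0.48 within the Y tumors and -0.35 for tumors 8 and 9 against 1 and 10. With same-numbered tumor and kidney as a pair the median was 0.32, and the log2 fold changes of Fasn and Idi1 turned to 1.02 and 0.20. The levels of the kidneys enter that fit. Fasn had 58.5, 69.7 and 24.6 CPM in normal kidneys 7, 8 and 9, against 151 to 350 CPM in the remaining normal kidneys. Idi1 had 8.12, 7.89 and 10.1 CPM, against 16.1 to 30.7 CPM. Summed levels were 1941, 1790.4 and 1594 CPM, below the other tumors' 1976 to 3402 CPM. Fasn, fatty acid synthase, had 88.1, 120.2 and 189 CPM, against 143, 324 and 442 CPM, so tumor 9 overlapped (log2 fold change -1.21, SE 0.34, adjusted p = 0.0477). Idi1, which isomerizes the isoprene units of cholesterol, had 8.72, 9.41 and 9.07 CPM, against 12.2, 21.2 and 27.2 CPM, with no overlap, and fell by 1.11 with and without tumor 7. Fatty acid oxidation genes were called in 0 of 26 by edgeR (2 lower unadjusted, 1 by DESeq2, 1 by limma-voom), at a median of -0.07. Within the PT-low class they summed to 4802, 8114 and 4859 CPM in tumors 7, 8 and 9, so that tumor 8 stood higher.

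Cell cycle genes depended on tumor 7. Of 30 mitosis genes edgeR called 0 (1 lower unadjusted, 1 by DESeq2, 0 by limma-voom). The median was 0.43 with tumor 7 and -0.63 without it, when 30 of 30 were negative. It was 0.38 within the Y tumors, and -0.84 with same-numbered tumor and kidney as a pair. Summed levels were 547, 95.1 and 219 CPM in tumors 7, 8 and 9, against 90.1, 310.0 and 371 CPM. Tumor 7 was thus above all other tumors, tumor 9 among the lower ones and tumor 8 close to tumor 5, the lowest of all, at 90.1 CPM. Mki67, a marker of cycling cells, had 59.7, 5.23 and 23.8 CPM, against 4.59, 28.4 and 39.7 CPM (log2 fold change 0.37, adjusted p = 0.768). Tpx2, a spindle factor, had 37.7, 22.5 and 27.2 CPM, against 22.97, 80.8 and 89.97 CPM (log2 fold change -1.16, adjusted p = 0.0769). Of all genes tested 2.95% were lower, and neither of the next 2 lists was tested against them. Of 22 DNA replication genes 2 fell, among them E2f1, the S-phase factor, by 0.77. Of 17 G1 genes 1 fell, Ccnd1, cyclin D1, with 164, 156 and 300.0 CPM, against 290.3, 598 and 831 CPM, where tumor 9 overlapped (log2 fold change -1.46, SE 0.35, adjusted p = 0.0321).

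Calls among targets of the pathways that the sgRNAs address are given beside those over all genes tested, of which 6.8% were higher and 2.95% lower, and the lists were not tested against all genes. With same-numbered tumor and kidney as a pair the medians went from -0.18 to -1.07 for NRF2 targets and from -0.28 to -0.54 for lysosome genes with TFE3 and TFEB targets. Of 30 NRF2 targets, the genes that loss of Keap1 releases, 1 fell, Gstm3, a glutathione transferase with close copies. It had 26.3, 124 and 85.8 CPM, against 119, 228 and 332 CPM, overlapping through tumor 8 (log2 fold change -1.52, SE 0.43, adjusted p = 0.049996). Fth1, ferritin heavy chain and the most abundant, had 6682, 6681 and 5781 CPM, against 5224 to 6447 CPM, and was not called (log2 fold change 0.17, adjusted p = 0.493). Of 26 lysosome genes and TFE3 and TFEB targets, 1 rose, Ctsk, a collagen-cleaving cathepsin (2.32, and 0.89 without tumor 7), and 1 fell, Rragd, a nutrient-sensing GTPase. Rragd had 78.9, 134 and 152 CPM, below the other tumors' 164 to 247 CPM, and fell by 0.75. Ctsb, cathepsin B, was not called (log2 fold change -0.40, adjusted p = 0.292). Of 18 ATF4 and serine synthesis genes edgeR called 0 (2 higher and 1 lower unadjusted, 1 and 1 by DESeq2, 0 by limma-voom), among them Shmt2 of one-carbon use (log2 fold change -0.56, adjusted p = 0.0836). The edited genes themselves were not called (1 of 4 higher unadjusted, 0 by DESeq2 and limma-voom). Vhl had 17.8, 18.4 and 15.7 CPM, against 12.4 to 28.6 CPM. Pbrm1 had 66.4, 64.6 and 62.7 CPM, against 36.1 to 75.2 CPM, and Keap1 56.6, 83.2 and 79.4 CPM, against 74.3 to 91.3 CPM. Tsc1 had 26.0, 45.8 and 29.8 CPM, against 26.0 to 52.0 CPM. A guide's cut can leave the level of an RNA as it was, so these levels are no measure of editing.

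**Figure D5:**
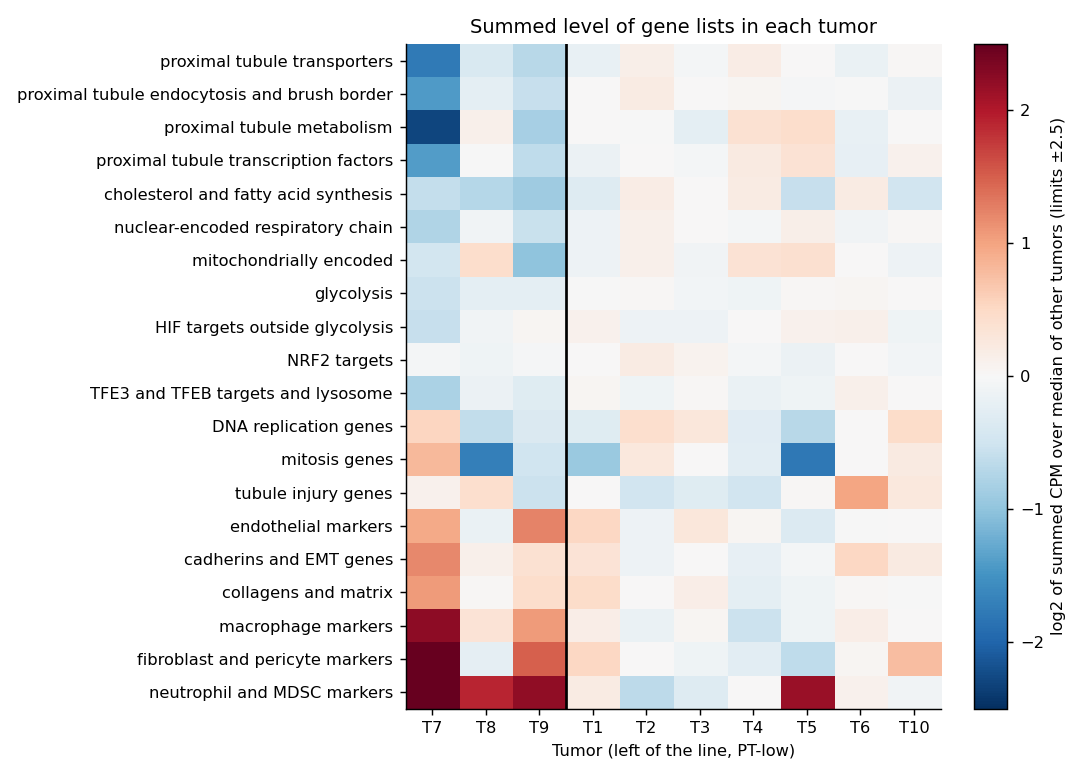
Summed CPM of each gene list in each tumor as log2 of its ratio to the median of the other tumors, with the color scale ending at a log2 ratio of 2.5 in either direction, red for higher and blue for lower; tumors left of the line are PT-low. Tumor 7 is blue for proximal tubule lists and deep red for fibroblast, macrophage and neutrophil lists, tumor 9 is alike but paler, and tumor 8 is near the other tumors for most lists, with 8433 CPM of transporters against their median of 10937 CPM.

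The 3 PT-low tumors thus differed from each other in most lists. Tumor 7 was the lowest of all tumors in the summed proximal tubule lists (3219.7 CPM of transporters, 2356 CPM of endocytosis genes and 3313 CPM of metabolism genes). Tumor 9 was second lowest in these sums, at 6793, 4212 and 9209 CPM. Tumor 8 was below all other tumors in transporters and endocytosis genes, at 8433 and 5315 CPM, but not in metabolism. It was within the other tumors in endothelial and fibroblast genes, and above the highest of them in macrophage genes, with 813 against 712 CPM.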

How the data were processed

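Polyadenylated RNA of 10 tumors and 10 normal kidney regions was sequenced in bulk, and the authors deposited counts per gene. The submitters' processing notes name the genome build mm10. The aligner, the counting tool and the use of strand are not given in the sources used here. The table holds 54532 genes, 22149 of them without a count. PT-low and other tumors were compared in the 10 tumors with edgeR 4.0.16 (R 4.3.3), by TMM factors, filterByExpr at a count minimum of 10 and the quasi-likelihood test, with Benjamini-Hochberg adjustment across the genes tested. The 13 panel genes stayed in the fit and out of the counts. Library measures were compared by exact permutation tests. Levels are CPM, divided by TMM factors except in the rule score. A fit of all 20 libraries gave the values against normal kidney. DESeq2 1.42.0 and limma-voom (limma 3.58.1) were alternatives, and the fit was tested on simulated data. P-values of the fits set the size of a class difference against the spread between samples. The classes come from the same libraries, so genes that vary with the panel had to differ. Named genes are the 4 edited genes, the 10 largest rises and 10 largest falls by log2 fold change, and from 35 lists the most abundant members and those with the largest called change. Rises and falls had to be protein-coding and called, with a class mean of at least 1 CPM, no overlap of the classes and the same direction without each PT-low tumor. Some of these are not printed, and genes chosen otherwise are said to be so. The members and lists were chosen with earlier results of these data known. Alternatives with Y-linked transcripts were chosen after seeing the data. Python 3.11.15 and matplotlib 3.10.9 drew the figures.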

Additional observations from a re-analysis of the deposited data

Results flagged for a closer look

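In groups of 7 or 10 tumors, 19 values of 127 groups examined lay far from the rest by the gap to the nearest value over the range. Chance alone marks about 1 in 20 groups, and lists share tumors and genes, so the marks are not independent. Most belong to tumor 7. Its mean Spearman correlation with the remaining tumors was 0.866. Its summed CPM was the lowest of the 10 tumors for proximal tubule transporters (3219.7), endocytosis and brush border (2356), proximal tubule metabolism (3313), kidney lineage transcription factors (440.0), distal convoluted tubule markers (121), hypoxia targets outside glycolysis (6702), glycolysis (15529.6) and lysosome genes (18553). It was the highest for fibroblast and pericyte markers (9568), neutrophil markers (552) and cadherins with genes of epithelial-mesenchymal transition (6615). Tumor 9 had the highest share of counts on genes of over 5000 bases, 40.1%. Within the 7 other tumors, tumor 5 was far above the rest in S100a9 (9.63 CPM), Retnlg (3.76 CPM) and Serpina3i (0.332 CPM). Tumor 10 was so in Tnc (11.7 CPM). Tumor 4 was far below the rest in Eno1 (3780.2 CPM), and tumor 6 in Mettl7a2 (0.754 CPM), where it had a level like the PT-low tumors. No cause was tested for any of these.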

How the results depend on the processing

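No named gene called and tested again changed direction with other size factors (RLE, upper quartile, library totals), no filter or limma-voom (59 genes each). The same held without 1 tumor, in the fit of 20 libraries, and without the 20 most abundant genes with library totals (59 genes each). Nor did any with a mean of at least 1 CPM or tumor 6 as PT-low (56 genes each), or with DESeq2 among the 47 to which it gave an adjusted p. Counts by leave-one-out ran from 0 to 2171 higher and from 0 to 1409 lower. Counts within 1.5 times those reported, 1062 higher and 460 lower, came from RLE (1085, 447), upper quartile factors (1102, 416) and no filter (1157, 352). So did those of the 1 CPM minimum (1093, 460) and limma-voom (749, 385). Another was the fit without the 20 most abundant genes, which also took library totals in place of TMM factors (1311, 346). DESeq2 called 1669 and 1086, library totals 1451 and 306, and the fit of 20 libraries 1387 and 149. With tumor 6 as PT-low edgeR called 0 higher and 1 lower, Mettl7a2 (2534 unadjusted). With a term for Y-linked transcripts, in the 5 tumors with them and in these without tumor 7, edgeR called 0 and 0 (2048, 1003 and 884 unadjusted). Tumors under the threshold were 3 with TMM-scaled CPM, 4 with the median of normal kidneys (tumor 6 at 0.242) and 1 over the other proximal tubule genes. The replicate block took same-numbered tumor and kidney as a pair. The labels do not say that a number marks a mouse, X and Y transcripts matched in 10 of 10 numbers, and same-numbered libraries correlated best in 8 of 10, with r across genes from -0.14 to 0.38. With this replicate block edgeR called 0 and 0 (3298 unadjusted), and the log2 fold change turned for Cyp2d26 (0.71), Slc22a29 (1.69), Gatm (1.02), Timp1 (-0.38), Cd14 (-1.30), Cd68 (-1.89), Mki67 (-0.15), Fth1 (-1.29), Rragd (0.0187), Fasn (1.02), Idi1 (0.20) and Vhl (0.0196). List medians of over 0.1 that turned were those of injury genes (-0.37), distal convoluted tubule markers (1.27), MHC class II (0.38), mitosis genes (-0.84), ATF4 and serine synthesis genes (-0.70) and cholesterol and fatty acid synthesis (0.32). In tumors 8 and 9 against 1 and 10 the log2 fold change turned for Col3a1 (-0.43), Col1a1 (-0.48), Tnc (-0.14), Mki67 (-0.65), Keap1 (0.0689) and Vhl (0.14). The Vhl log2 fold change was 0.19 with the Y term, 0.17 in the 5 tumors and 0.00323 with library totals. The Mki67 log2 fold change was -0.12 by limma-voom. With tumor 6 as PT-low the Spp1 log2 fold change was 0.53 and the Tsc1 log2 fold change -0.0615. Among named genes, leave-one-out ranges that cross 0 were -0.70 to 0.85 for Mki67, -0.68 to 0.0747 for Spp1, -0.23 to 0.19 for Tsc1, -0.19 to 0.0243 for Vhl and -0.00185 to 0.48 for Egln3. List medians whose ranges cross 0 were those of loop of Henle (-1.42 to 0.0931), distal convoluted tubule (-0.61 to 0.0793), podocyte (-0.12 to 1.19), T and NK cell (-0.15 to 0.95), interferon (-0.65 to 0.22), mitosis (-0.63 to 0.86), DNA replication (-0.51 to 0.21), HIF (-0.24 to 0.0807), ATF4 (-0.16 to 0.19), fatty acid oxidation (-0.33 to 0.0958), mitochondrially encoded (-0.89 to 0.00877) and edited genes (-0.19 to 0.11). Differences of class means ranged from -650865 to 1134148 total counts, -1.25 to 0.166 percent mitochondrial counts and -0.436 to 1.64 percent on long genes. The cause of these moves was not tested, beyond fewer samples where tumors were left out. Depth limits genes of under 1 CPM, where a PT-low value can rest on a few counts. With 3 PT-low tumors, 1 of which stands apart, and Y-linked transcripts in all of them, class, tumor 7 and chromosome cannot be fully told apart.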

Other observations

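The normal kidneys numbered as the PT-low tumors, 7, 8 and 9, had rule scores of 0.201, 0.555 and 0.548, and normal kidney 5 had 0.376, while the remaining 6 had 1.14 to 1.40. Normal kidney 9, the library with the lowest share of counts on long genes (18.4%), scored 0.776 with TMM-scaled CPM. Over the 88 other proximal tubule genes it scored 1.18, where normal kidneys 5, 7 and 8 scored 0.412, 0.417 and 0.627. Kl stood at 78.3, 149 and 180.0 CPM in normal kidneys 7, 8 and 9, and at 98.7 CPM in normal kidney 5, against a median of 543 CPM over the 10 normal kidneys. Gatm stood at 33.8, 95.7 and 369 CPM in normal kidneys 7, 8 and 9, and at 30.2 CPM in normal kidney 5, against a median of 772 CPM. Normal kidneys 5, 7 and 8 had 33792, 44403 and 26168 CPM of the injury gene Spp1, against 2001 to 4012 CPM in the remaining normal kidneys. The labels do not say that a number marks a mouse. Same-numbered tumor and kidney had r across genes, which are not independent replicates, of 0.383, 0.355 and -0.137 for numbers 7, 8 and 9.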
